A study of Arabidopsis thaliana with 9 samples.

Results

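The genes described here are 40 genes of auxin response and auxin transport in Arabidopsis thaliana, chosen by locus identifier from 4 families. They comprise 22 Aux/IAA repressors, 11 ARF transcription factors, 4 TIR1/AFB receptors and 3 PIN carriers, out of 33977 genes listed in the count data. Of the 40, 39 had enough counts to be tested, and IAA20 did not pass the filter on low counts.

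Auxin acts by removing repressors. The TIR1/AFB proteins are F-box subunits of an SCF ubiquitin ligase, and auxin holds an Aux/IAA protein against them, so that the repressor is marked for degradation. ARF proteins bind DNA upstream of auxin-responsive genes and are released when their Aux/IAA partners disappear. Many Aux/IAA genes are themselves early targets of auxin, which closes a negative feedback loop, and PIN proteins carry auxin out of cells with a polarity that sets where it gathers in shoot tips, veins and young leaves.

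RNA was sequenced from aboveground tissue of bolting Col-0 plants in 3 groups of 3 biological replicates. Wild type (WT) served as the control, and both other groups have the genotype PPD3-RNAi T+, one with a dwarf and one with a large phenotype. The title of the series names plant growth and defence responses to disruption of PPD3, a protein of the sensory plastid. The promoter of the RNAi construct, the number of independent lines and the number of plants pooled in a sample are not stated in the labels, and both RNAi groups are compared with the same 3 WT libraries.

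Gene counts summed to between 34660392 and 35217754 per library. PPD3 itself, the gene named by the construct, was at 91.1 to 115 CPM in WT, 77.9 to 108 CPM in the libraries labelled large and 87.6 to 128 CPM in those labelled dwarf, with log2 fold changes of -0.17 and 0.03 against WT (adjusted p = 0.708 and 0.934, edgeR quasi-likelihood test). CPM are counts scaled to a common library total, with a TMM normalisation factor. Because PPD3 was not lower in the test of measured counts, the groups are named throughout by their labels only. Summed leaf mesophyll markers were at 40327 to 46284 CPM in WT, 29279 to 38769 CPM in the libraries labelled large and 22464 to 49015 CPM in those labelled dwarf. Root markers summed to at most 0.555 CPM in any library. On the first principal component of all genes, with 38.2% of the variance, dwarf 1 (-77.5) and dwarf 2 (-41) stood apart from dwarf 3, which lay on the WT side.

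Several stretches of chromosome carried raised levels over most of their genes in the RNAi libraries, and 11 of the 40 genes lie in them. A search along the chromosomes found 13 such segments, all in libraries labelled dwarf or large and none in WT. In each, the median ratio of its genes to WT was 1.45 to 1.95 times that of the library's genes outside segments. A segment covers chr1:3631-11719988 of the TAIR10.1 assembly in dwarf 3, and holds IAA3, IAA5, IAA10, IAA12, IAA17, ARF5, ARF6, ARF19, AFB3 and PIN7. Another covers chr1:25631689-30424152 in dwarf 1 and dwarf 2, and holds PIN3. PPD3, which is not one of the 40 genes, lies in it as well, by the order of locus identifiers. Its values above are as measured. Whether PPD3 is lower in dwarf with the step of this segment taken out was not tested. The remaining segments, on chromosomes 3 and 4, hold none of the 40 genes. Apart from PPD3, for genes in a segment whose fold changes are described, values are given as measured and with the step of the segment taken out as an offset in the fit. What raised the segments was not tested.

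Few of the 39 tested genes changed, and those that did came from 2 of the 4 families. In the libraries labelled dwarf, IAA7 fell and AFB2 rose against WT. In those labelled large, IAA26 rose. The 2 genes called in the first comparison are 5.13% of the tested members, where 8.76% of all 19870 genes tested were called (6.54% higher and 2.22% lower). The 1 in the second is 2.56%, where 4.22% of all genes were called (3.89% higher and 0.327% lower). A call is a Benjamini-Hochberg adjusted p under 0.05 in edgeR's quasi-likelihood test over all genes tested. Neither share exceeds the background of all genes. No member was called between dwarf and large, where 0.649% of all genes were (0.272% higher and 0.377% lower). In that comparison 7 members (of 39) had an unadjusted p under 0.05, as had 19.9% of all genes, and DESeq2 called 2, IAA26 and IAA27, where it called 8.59% of all genes. Separation of the replicates, where all values of one group lie on one side of the other, was more frequent than calls. It held for 16 members (41%) in dwarf against WT, where it held for 28.9% of all genes, for 19 (48.7%) in large against WT, against 33.6%, and for 10 (25.6%) between dwarf and large, against 20% (8.79% higher and 11.2% lower). In bulk tissue, a lower level from fewer cells of a type and one from less RNA per cell cannot be told apart.

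**Figure D1:**
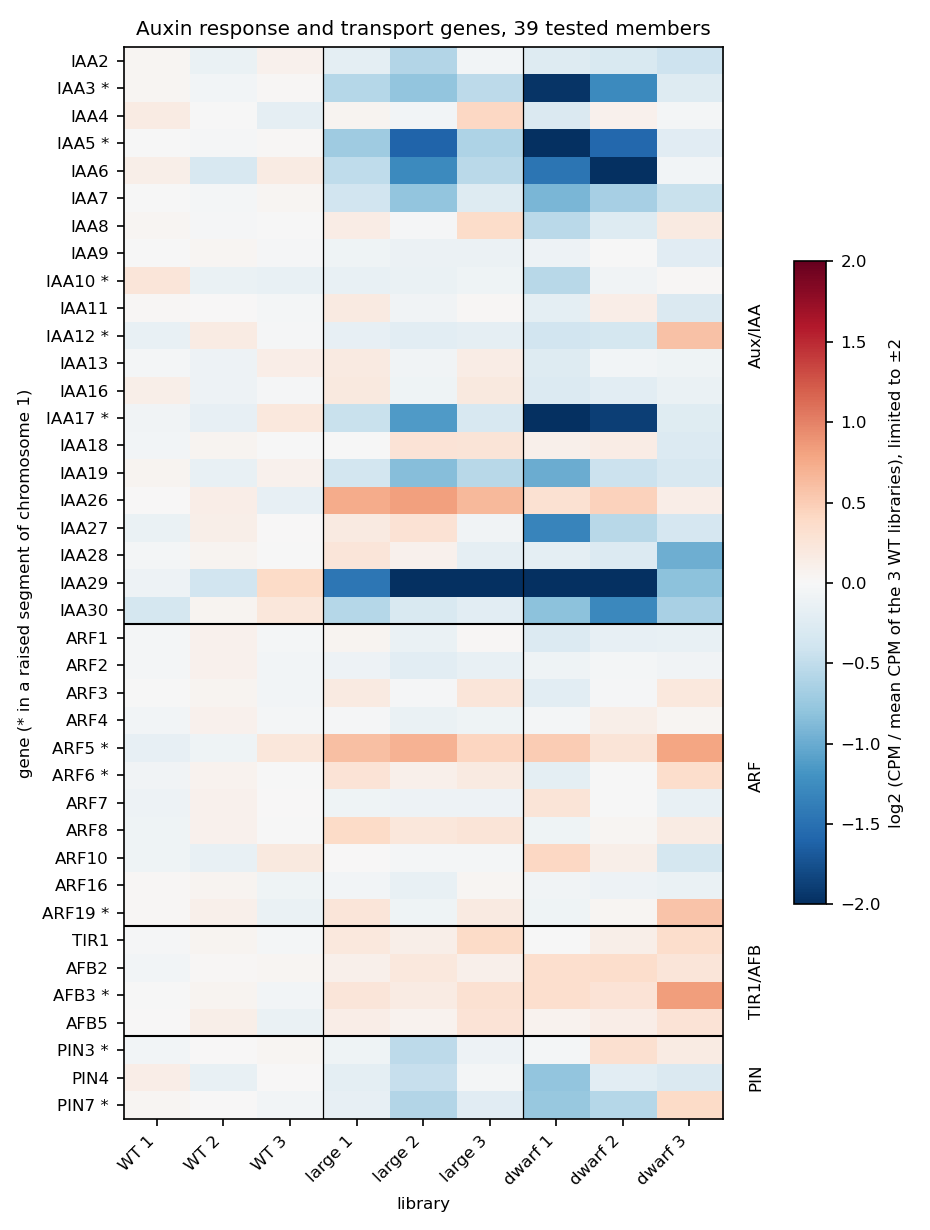
Colour shows the log2 ratio of CPM in each of the 9 libraries (columns) to the mean of the 3 WT libraries, for the 39 tested genes (rows) by family, with colours limited to a ratio of 2 on the log2 scale and an asterisk at the 11 genes in raised segments. The Aux/IAA rows hold most of the blue cells, which are deepest in dwarf 1 and dwarf 2, while the 4 TIR1/AFB rows are at or above WT in nearly every RNAi library.

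The Aux/IAA repressors hold the auxin-dependent degron, a short stretch of domain II whose core reads Gly-Trp-Pro-Pro and which fits under the receptor together with auxin. Codons for this core, whatever their synonymous bases, were searched in the reading frame. They were found in 20 of the 22 Aux/IAA members and were not found in IAA20 and IAA30. The stretch is shown for the members with calls (IAA7, IAA26), the member with the highest level (IAA9) and 3 of those below WT in every RNAi library (IAA29, IAA3, IAA17). Each is given as 30 bases of the coding strand in the RefSeq TAIR10.1 genome, with the core codons in capitals.
IAA7: caagtggtgGGATGGCCACCTgtgaggaac
IAA26: ccagtggtgGGTTGGCCTCCGgttcgttcg
IAA9: caaattgtcGGTTGGCCTCCAgtgagatcc
IAA29: gaagttgttGGATGGCCACCAgtaaaaaca
IAA3: cagattgttGGATGGCCACCAgttagatct
IAA17: caagttgtgGGATGGCCACCGgtgagatca
Within the core the 6 stretches can differ only at synonymous bases, because the search required the same amino acids. Around the core they differ more widely.

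Levels of the Aux/IAA genes spanned more than any other family. Per kb of exon, and averaged over the 9 libraries, IAA9 was highest at 99.5 CPM per kb, ahead of IAA8 at 64.0 and IAA16 at 53.0. The order of these 3 did not depend on single WT libraries, since their WT values did not overlap. IAA30 was at 0.263 CPM per kb and IAA20 at 0.0322, so that the pair without the degron codons was also the pair with the lowest level. In the middle of the order, IAA4 (23.6 to 30.1 CPM per kb in WT) and IAA27 (24.6 to 29.1) overlapped, as did IAA13 and IAA11.

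As a family, the Aux/IAA genes were mostly below WT in the libraries labelled dwarf. Of 21 tested, 18 had a negative log2 fold change, with a median of -0.32, where the median of all genes tested was 0.05. In 11 of 21 the 3 dwarf values all lay below the 3 WT values, and 0 lay above them. Over all genes tested, 12.2% lay wholly below and 16.8% wholly above. Of these differences, 1 passed the test, that of IAA7, and 10 of 21 Aux/IAA genes had an unadjusted p under 0.05, 9 of them lower, where 26.2% of all genes had one. In the libraries labelled large, 12 of 21 were negative with a median of -0.12, and 1 passed, IAA26, which was higher. Replicates did not overlap in 10 of 21 Aux/IAA genes there, 9 below WT and 1 above, where 13.9% of all genes lay wholly below and 19.7% wholly above. An unadjusted p under 0.05 in edgeR was found for 4 of 21, 3 lower and 1 higher, close to the 18.7% of all genes.

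IAA7, known as AXR2, is a repressor whose stabilised form in mutants gives dwarfed plants with altered tropisms, and it (AT3G23050) lies at chr3:8194606-8197161. Its level was 82.9, 81.4 and 85.3 CPM in WT libraries 1 to 3, 44.1, 52.4 and 61.2 CPM in dwarf libraries 1 to 3, and 64.0, 48.1 and 69.5 CPM in large libraries 1 to 3. All 6 RNAi libraries were below all 3 WT libraries, and the dwarf and large values overlapped. This gave a log2 fold change of -0.66 in dwarf against WT (SE 0.15, 95% interval -1.01 to -0.31, adjusted p = 0.0335, edgeR) and -0.46 in large against WT (SE 0.15, 95% interval -0.81 to -0.11, adjusted p = 0.139). Between dwarf and large it was -0.20 (95% interval -0.55 to 0.15, adjusted p = 0.492). The dwarf call was lost when the genes of raised segments were left out (adjusted p = 0.0577), with only the 2 groups in the fit (0.0523), and without dwarf 1, dwarf 2, large 1 or any 1 of the WT libraries (0.0573 to 0.110), while the log2 fold change stayed between -0.79 and -0.55.

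IAA26 (AT3G16500), also called PAP1, was the Aux/IAA gene with a call for a higher level. It lies at chr3:5612203-5614803, and was measured at 20.1, 21.9 and 17.9 CPM in WT, 33.3, 35.4 and 31.3 CPM in the libraries labelled large, and 24.6, 27.4 and 21.8 CPM in those labelled dwarf. The large libraries stood above all others without overlap, and dwarf 3 fell within the WT range. In large against WT its log2 fold change came to 0.74 (SE 0.11, 95% interval 0.48 to 1.0, adjusted p = 0.0172, edgeR), the smallest adjusted p of any member in any of the 3 comparisons. In dwarf against WT it was 0.30 (SE 0.11, adjusted p = 0.134) and in dwarf against large -0.44 (95% interval -0.69 to -0.18, adjusted p = 0.0949), which DESeq2 called. The large call was lost without any 1 of the large libraries, WT 1 or WT 2 (adjusted p = 0.0554 to 0.0907), at log2 fold changes of 0.69 to 0.81.

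**Figure D2:**
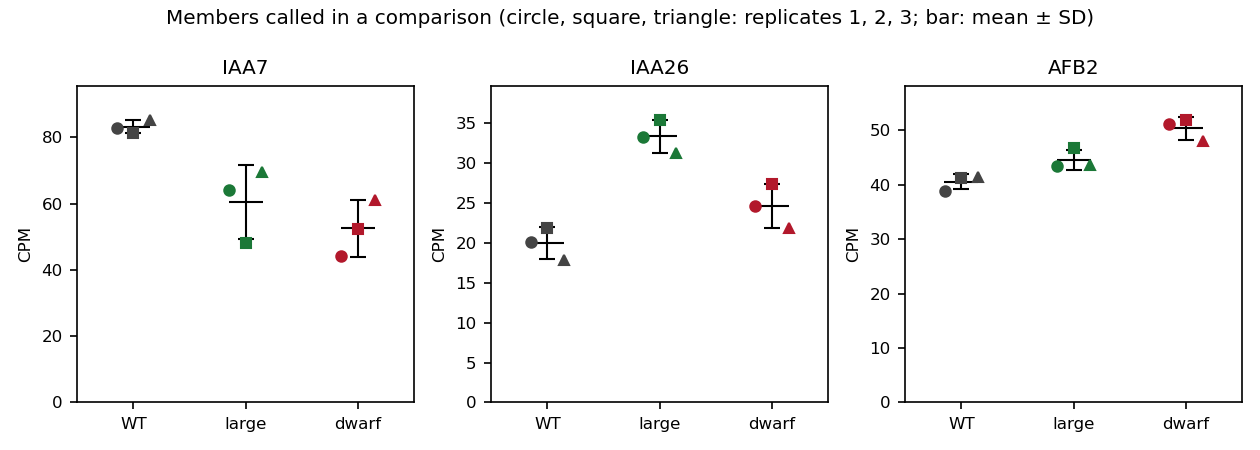
CPM (vertical axis, from 0) of the 3 members called in a comparison in each library, by group, with the mean and SD of 3 replicates as bars. IAA7 is below WT in all 6 RNAi libraries, IAA26 is highest in the libraries labelled large, and AFB2 is highest in those labelled dwarf.

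IAA29 (AT4G32280), a gene induced by shade and low light through PIF factors, had the lowest log2 fold change of all 39 tested members in both comparisons, without a call. It was at 7.04, 5.82 and 9.85 CPM in WT libraries 1 to 3, at 0.604, 1.87 and 4.29 CPM in those labelled dwarf and at 2.79, 1.42 and 1.67 CPM in those labelled large. All 6 RNAi libraries lay below WT, and the dwarf libraries themselves differed widely. The log2 fold change was -1.76 for dwarf (SE 0.57, adjusted p = 0.0911, edgeR) and -1.95 for large (SE 0.57, adjusted p = 0.0992). DESeq2 called both.

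In 3 Aux/IAA genes of the segment at the start of chromosome 1 the dwarf libraries differed widely among themselves. IAA3, known as SHY2, was at 46.7, 43.6 and 46.1 CPM in WT libraries 1 to 3, at 11.7, 18.8 and 38.0 CPM in those labelled dwarf and at 30.7, 26.3 and 31.7 CPM in those labelled large. IAA17, known as AXR3, was at 26.3, 24.7 and 32.1 CPM in WT libraries 1 to 3, at 4.89, 7.55 and 23.3 CPM in those labelled dwarf and at 20.4, 12.7 and 22.2 CPM in those labelled large. IAA5 was at 1.98, 1.96 and 2.02 CPM in WT libraries 1 to 3, at 0.357, 0.669 and 1.70 CPM in those labelled dwarf and at 1.22, 0.657 and 1.29 CPM in those labelled large. For each of the 3, every RNAi library was below every WT library, and dwarf 3, the library in which their segment is raised, was the highest of the dwarf libraries. The log2 fold changes in dwarf against WT were -1.0 for IAA3 (adjusted p = 0.107), -1.22 for IAA17 (adjusted p = 0.161) and -1.14 for IAA5 (adjusted p = 0.183), so that none was called by edgeR as measured. DESeq2 called IAA3 as measured, but not IAA17 or IAA5, where it called 16% of all genes. With the step taken out, dwarf 3 was at 26.2 CPM for IAA3 and 16.1 CPM for IAA17, and the log2 fold changes were -1.26 (adjusted p = 0.0274) and -1.53 (adjusted p = 0.0623), and that of IAA5 was -1.42 (adjusted p = 0.0825). IAA3 and an opposite-strand gene, AT1G04230, overlap over 41.5% of IAA3, and the library protocol does not mark strand. Reads of the overlap may have been counted for either gene or left out as ambiguous.

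**Figure D3:**
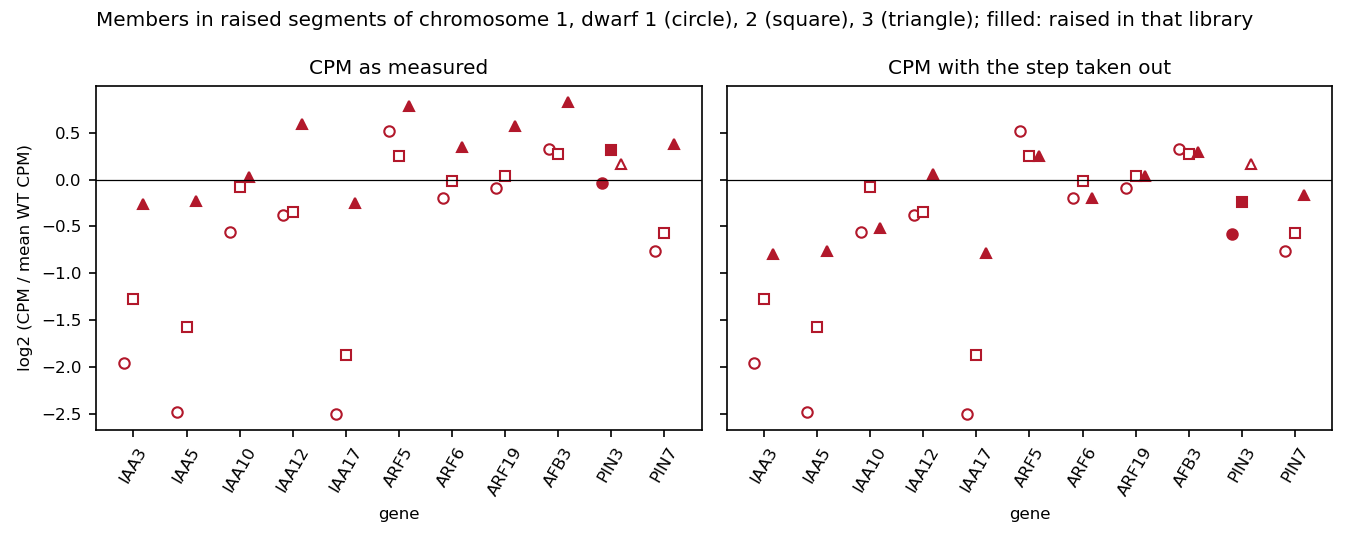
Log2 ratio of CPM to the WT mean for the 11 members in raised segments of chromosome 1, in dwarf 1 (circles), dwarf 2 (squares) and dwarf 3 (triangles), as measured (left) and with the step taken out (right); filled symbols mark the library in which the segment is raised. With the step out, IAA3, IAA5, IAA10, IAA17 and PIN7 lie below 0 in all 3 dwarf libraries, and AFB3 lies near the same height in all 3.

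IAA27 and IAA16 were the other members nearest to a call between the RNAi groups. IAA27, also called PAP2, was at 15.5, 26.4 and 30.6 CPM in dwarf, 43.6, 47.3 and 36.7 CPM in large and 35.3, 41.7 and 38.8 CPM in WT. Its dwarf values lay below all others, and its large values overlapped WT. The log2 fold change was -0.82 in dwarf against large (95% interval -1.32 to -0.32, adjusted p = 0.104, edgeR) and -0.68 in dwarf against WT (adjusted p = 0.0915). DESeq2 called both. IAA16 had a log2 fold change of -0.31 in dwarf against large (adjusted p = 0.154), with values of 90.1 to 99.8 CPM in dwarf and 103 to 125 CPM in large. IAA19, known as MSG2 and a partner of ARF7 in hypocotyl bending, was at 6.38 to 7.46 CPM in WT, 3.91 to 5.49 CPM in large and 3.54 to 5.62 CPM in dwarf, below WT in all 6 RNAi libraries (log2 fold change -0.57 in large, adjusted p = 0.148, and -0.56 in dwarf, adjusted p = 0.113).

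Among the replicates, the same libraries held the low values of gene after gene. Of the 21 tested Aux/IAA genes, 13 (61.9%) had their lowest value of all 9 libraries in dwarf 1, which held the lowest value of 23.4% of all genes tested. Within the libraries labelled large, large 2 was lowest for 15 of 21 (71.4%), against 37% of all genes. Among the 16 Aux/IAA genes outside raised segments, dwarf 1 was lowest of the 9 libraries for 8. Leaf mesophyll markers summed to their lowest values in the same libraries, 22464 CPM in dwarf 1 and 29279 CPM in large 2, and to their highest in dwarf 3, at 49015 CPM. All 5 leaf markers had a negative log2 fold change in dwarf (median -0.35) and none passed the test. One of them, CAB1, lies in the segment raised in dwarf 3, and was at 26545 CPM there, or 18302 CPM with the step out. With the latter value the leaf marker sum of dwarf 3 would not be the highest. The 10 secondary wall and xylem markers summed to 76.2 and 81.8 CPM in dwarf 1 and dwarf 2, 129 CPM in dwarf 3, 126 to 135 CPM in WT and 123 to 134 CPM in large. In dwarf against WT all 9 of those tested were negative, with a median log2 fold change of -0.45, and XCP1, a protease of xylem vessels, fell (-0.76, adjusted p = 0.00992, edgeR). XCP2, another of the 10, lies in the segment raised in dwarf 3, at 38.1 CPM there as measured and 26.3 CPM with the step out. With the latter value the xylem marker sum of dwarf 3 would lie below those of WT and large. The log2 fold change of XCP2 in dwarf against WT went from -0.23 to -0.47 with the step out. The part of leaf tissue, vascular tissue or library in the Aux/IAA values was not tested. Without dwarf 3, 13 members were called in dwarf against WT, 10 lower and 3 higher, and at the same time 4477 of 20116 genes (22.3%). The 13 were IAA3, IAA5, IAA6, IAA7, IAA12, IAA17, IAA19, IAA26, IAA27, IAA29, AFB2, AFB3 and PIN7.

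Auxin response elements are the DNA words that ARF proteins bind. The words TGTCTC and TGTCGG were searched on both strands in the 250 bases upstream of each annotated gene start in the RefSeq TAIR10.1 annotation. At least 1 of them was found in 14 of the 40 members (35%) and in 10 of the 22 Aux/IAA genes (45.5%), and in 14.7% of the windows of all 27443 protein-coding genes. TGTCTC alone was in 20% of the members' windows and 10.9% of all, and TGTCGG alone in 17.5% and 4.16%. The shorter core TGTC was in 82.5% and 74.8%. IAA19 and IAA5 held 3 words each, the most of any member, and their windows are printed beside those of the called genes IAA7 and IAA26, which held neither word. Found words are in capitals and each window reads towards the gene. The windows lie at chr3:5263751-5264000 (plus strand) for IAA19, chr1:5366498-5366747 (minus strand) for IAA5, chr3:8194356-8194605 (plus strand) for IAA7 and chr3:5614804-5615053 (minus strand) for IAA26.
IAA19: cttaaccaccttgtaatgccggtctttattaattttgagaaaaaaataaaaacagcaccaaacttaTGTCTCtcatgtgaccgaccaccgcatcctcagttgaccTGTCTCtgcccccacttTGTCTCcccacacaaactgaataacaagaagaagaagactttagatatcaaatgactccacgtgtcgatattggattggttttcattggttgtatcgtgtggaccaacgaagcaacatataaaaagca
IAA5: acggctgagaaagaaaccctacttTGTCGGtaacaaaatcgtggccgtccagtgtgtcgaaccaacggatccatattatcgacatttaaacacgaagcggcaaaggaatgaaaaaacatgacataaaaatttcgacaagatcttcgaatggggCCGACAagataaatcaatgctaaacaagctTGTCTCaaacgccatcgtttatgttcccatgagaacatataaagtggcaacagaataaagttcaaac
IAA7: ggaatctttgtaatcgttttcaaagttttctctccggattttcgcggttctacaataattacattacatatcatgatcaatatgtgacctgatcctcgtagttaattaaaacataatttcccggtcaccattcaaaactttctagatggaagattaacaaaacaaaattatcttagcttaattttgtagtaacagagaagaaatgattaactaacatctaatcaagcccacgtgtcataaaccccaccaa
IAA26: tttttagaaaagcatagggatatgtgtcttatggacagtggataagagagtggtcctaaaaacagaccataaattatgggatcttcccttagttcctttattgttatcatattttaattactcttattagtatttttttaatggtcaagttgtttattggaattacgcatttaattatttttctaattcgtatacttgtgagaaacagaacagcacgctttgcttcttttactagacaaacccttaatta
The 3 words of IAA19 begin 184, 145 and 128 bases upstream of the gene, and those of IAA5 begin 226, 97 and 67 bases upstream. The window of AFB2, the other called member, also held neither word. Genes below WT in every RNAi library were found with and without the words, since IAA19 and IAA5 held 3 each and IAA3, IAA7, IAA17 and IAA29 held none.

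The 11 ARF factors, which activate or repress auxin-responsive genes, were close to WT in both comparisons. Their log2 fold changes had a median of 0.04 in dwarf and -0.02 in large, and ranged from -0.19 to 0.53 and from -0.15 to 0.58. None was called by edgeR in either comparison. An unadjusted p under 0.05 was found for 2 of 11 in each, where 26.2% of all genes had one in dwarf and 18.7% in large. DESeq2 called ARF5 in both, where it called 16% and 9.23% of all genes. Per kb, ARF2, a repressor that restrains organ size, was highest at 83.0 CPM per kb over the 9 libraries, well above ARF1 at 29. ARF10 was lowest at 3.51, and its WT values overlapped those of ARF19, while ARF5, ARF19 and ARF10 were neighbours at the bottom of the order.

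ARF5 (AT1G19850), known as MONOPTEROS, is the activator that starts flower primordia and vein formation, and it had the highest log2 fold change of the family in both comparisons. It was at 14.3, 15.1 and 18.9 CPM in WT libraries 1 to 3, at 23.0, 19.2 and 27.7 CPM in those labelled dwarf and at 24.5, 26.1 and 21.6 CPM in those labelled large. All 6 RNAi libraries were above all WT libraries, although dwarf 2 and WT 3 were close. The log2 fold change was 0.53 for dwarf (SE 0.16, 95% interval 0.17 to 0.89, adjusted p = 0.0703, edgeR) and 0.58 for large (SE 0.16, 95% interval 0.23 to 0.94, adjusted p = 0.0775). With the step of its segment taken out of dwarf 3, the dwarf value was 0.34 (adjusted p = 0.158). IAA12, known as BODENLOS and the repressor that binds ARF5, had log2 fold changes of 0.03 in dwarf and -0.19 in large, with a high value in dwarf 3 (25.6 CPM, and 17.7 CPM with the step out) and 13.1 to 19.0 CPM elsewhere. With the step out its dwarf value turned to -0.20 (adjusted p = 0.375, edgeR), and without dwarf 3 it was -0.36 (adjusted p = 0.0422).

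ARF8, which with ARF6 promotes the maturation of flowers, was at 37.9 to 42.7 CPM in WT, 47.1 to 52.4 CPM in large and 37.9 to 45.2 CPM in dwarf. Its large values stood above WT (log2 fold change 0.29, SE 0.09, adjusted p = 0.116, edgeR), and its dwarf values overlapped WT. ARF6 was higher than WT in all 3 large libraries as well, at 111 to 125 CPM against 99.2 to 109 CPM, without a call (log2 fold change 0.19, adjusted p = 0.546). Sites for the microRNA miR167 lie in the coding exons of both genes. MicroRNA miR160 has such sites in ARF10 and ARF16, which are repressors, and neither gene differed by more than 0.10 on the log2 scale in either comparison.

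The 4 receptor genes had small positive fold changes throughout. TIR1, AFB2, AFB3 and AFB5 all had positive log2 fold changes in both comparisons, with medians of 0.24 in dwarf and 0.20 in large, and from 0.14 to 0.50 for single genes. Per kb, TIR1 (39.8 CPM per kb) and AFB5 (39.5) were highest and overlapped in WT, followed by AFB3 (21.1) and AFB2 (16.5). AFB2 was called in dwarf, where 8.76% of all genes were, and 0 receptors were called in large, where 4.22% were. In large none had an unadjusted p under 0.05 in edgeR or a call in DESeq2, as had 18.7% and 9.23% of all genes.

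AFB2 (AT3G26810), at chr3:9867652-9870782, was at 38.9, 41.3 and 41.5 CPM in WT libraries 1 to 3, at 51.1, 51.9 and 48.0 CPM in those labelled dwarf and at 43.4, 46.7 and 43.7 CPM in those labelled large. The 3 groups did not overlap, in the order WT, large, dwarf. Dwarf against WT gave a log2 fold change of 0.31 (SE 0.07, 95% interval 0.15 to 0.48, adjusted p = 0.0341, edgeR), and large against WT one of 0.14 (SE 0.07, 95% interval -0.03 to 0.30, adjusted p = 0.378). Between dwarf and large it was 0.17 (95% interval 0.01 to 0.34, adjusted p = 0.228). The dwarf call was lost with upper-quartile factors (adjusted p = 0.0716), no filter on low counts (0.0667), only the 2 groups in the fit (0.111), and without dwarf 1, dwarf 2, large 1, large 3 or any 1 of the WT libraries (0.0585 to 0.146), at log2 fold changes of 0.24 to 0.34.

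AFB3 was at 39.2, 41 and 38.0 CPM in WT libraries 1 to 3, at 49.5, 47.7 and 70.1 CPM in those labelled dwarf and at 46.4, 44.1 and 48.6 CPM in those labelled large. All RNAi libraries were above WT, and dwarf 3, in which its segment is raised, was the highest. As measured, the log2 fold change in dwarf was 0.50 (SE 0.14, adjusted p = 0.0604, edgeR), which DESeq2 called. With the step taken out, dwarf 3 was at 48.4 CPM, close to dwarf 1 and dwarf 2, and the log2 fold change of 0.30 (SE 0.06, adjusted p = 0.0396) was called. Overlap with 2 opposite-strand genes covers 27.6% of AFB3, so its count is less certain than that of AFB2. TIR1 was at 93.0 to 99.2 CPM in WT, 104 to 125 CPM in large and 95.2 to 122 CPM in dwarf (log2 fold change 0.25 in large and 0.16 in dwarf, adjusted p = 0.272 and 0.388), and AFB5 had log2 fold changes of 0.16 in both.

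TIR1, AFB2 and AFB3 share a site for the microRNA miR393, which cuts their transcripts and so limits the receptors. The sites are printed because the 3 genes shared the direction of their fold changes. The miR393a sequence is the reference one with its seed, bases 2 to 8, in capitals, and the sites are read from the coding strand, with capitals at bases that differ from its exact complement.
miR393a: tCCAAAGGgatcgcattgatcc
TIR1 site: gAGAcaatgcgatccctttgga
AFB2 site: gAaAcaatgcgatccctttgga
AFB3 site: gAaAcaatgcgatccctttgga
The sites lie in coding exons at chr3:23273727-23273748 (TIR1, minus strand), chr3:9870237-9870258 (AFB2, plus strand) and chr1:4369085-4369106 (AFB3, minus strand). The AFB2 and AFB3 sites are identical, with 2 such bases of 22, and TIR1 has 3, of which 1 can form a G:U wobble pair. In AFB5 the best match had 8, and AFB5 too had a positive fold change. The MIR393a transcript had 5 counts over the 9 libraries, too few to compare between groups.

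The 3 PIN carriers had no calls. PIN7 was highest per kb (35.9 CPM per kb), followed by PIN3 (24.1) and PIN4 (20.8), whose WT values overlapped. In dwarf, 1 of the 3 was positive and 2 were negative, with a median log2 fold change of -0.23, and in large all 3 were negative, with a median of -0.22. At an unadjusted p under 0.05 in edgeR, 1 of 3 was lower in dwarf against WT, where 26.2% of all genes passed. In large against WT 0 of 3 passed, where 18.7% of all genes did. DESeq2 called none in either comparison, where it called 16% and 9.23% of all genes.

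PIN3 and PIN7 redirect auxin in tropic bending and in stems. PIN7 was at 129 to 137 CPM in WT, 88.8 to 119 CPM in large and 78.5, 89.9 and 173 CPM in dwarf 1, 2 and 3, the last in its raised segment. With the step out, dwarf 3 was at 119 CPM, and all 6 RNAi libraries lay below WT. The log2 fold changes were -0.23 in dwarf and -0.31 in large as measured (adjusted p = 0.633 and 0.631, edgeR), and -0.47 and -0.31 with the step out (adjusted p = 0.124 and 0.379). PIN4 was at 69.5 to 85.1 CPM in WT and 44.9 to 67.0 CPM in dwarf (log2 fold change -0.41, adjusted p = 0.164). PIN3 was at 64.8, 67.5 and 68.6 CPM in WT libraries 1 to 3, 65.2, 83.2 and 75.3 CPM in dwarf libraries 1 to 3, and 63.4, 46.7 and 62.4 CPM in large libraries 1 to 3. Its large values lay below all others, and dwarf 1 fell within the WT range. In dwarf 1 and dwarf 2 its segment is raised, and with the step out they were at 44.7 and 56.8 CPM. That turned its log2 fold change in dwarf against WT from 0.16 (adjusted p = 0.498, edgeR) to -0.19 (adjusted p = 0.583).

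The shoot meristem markers STM and KNAT1 were higher in the same libraries as ARF5, while CLV1 overlapped WT. STM, a homeobox gene that keeps meristem cells undifferentiated, was at 0.0296, 0.0293 and 0.854 CPM in WT libraries 1 to 3, at 4.53, 5.46 and 2.99 CPM in those labelled dwarf and at 8.19, 5.58 and 6.78 CPM in those labelled large (log2 fold changes 3.80 in dwarf and 4.46 in large, adjusted p = 0.0233 and 0.0251, edgeR). KNAT1 was at 0, 0 and 0.854 CPM in WT, 4.38 to 7.05 CPM in large and 2.28 to 6.30 CPM in dwarf (adjusted p = 0.0374 in dwarf and 0.0474 in large), and lies in the raised segment of chromosome 4. With the step out its log2 fold changes went from 4.06 to 3.35 in dwarf and from 4.27 to 3.71 in large, and both calls were lost (adjusted p = 0.0821 and 0.0934). In both markers the RNAi groups stood above WT without overlap. CLV1, a receptor kinase of the shoot tip that lies in the segment raised in dwarf 1 and dwarf 2, was at 51.5 to 56.4 CPM in WT, 74.4, 82.3 and 51.5 CPM in dwarf libraries 1 to 3 and 53.5 to 61.3 CPM in large (log2 fold changes 0.35 and 0.05, adjusted p = 0.193 and 0.927). Its dwarf value turned, with the step out, to -0.04 (adjusted p = 0.811). The whole list of 5 shoot meristem markers summed to 53.2 to 56.4 CPM in WT, 64.5 to 76.6 CPM in large and 56.7 to 94.1 CPM in dwarf, as measured. Most of each sum is CLV1, which with the step out was at 50.9 and 56.2 CPM in dwarf 1 and dwarf 2. KNAT1 with the step out was at 3.09, 4.26 and 1.54 CPM in dwarf libraries 1 to 3. With these values the dwarf 3 sum would lie within the WT range, and those of dwarf 1 and dwarf 2 would be lower but still above WT. Of the list, 3 could be tested, and WUS and CLV3, which define the stem cell centre, were at 0 in all libraries. Their part in the ARF5 values was not tested.

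**Figure D4:**
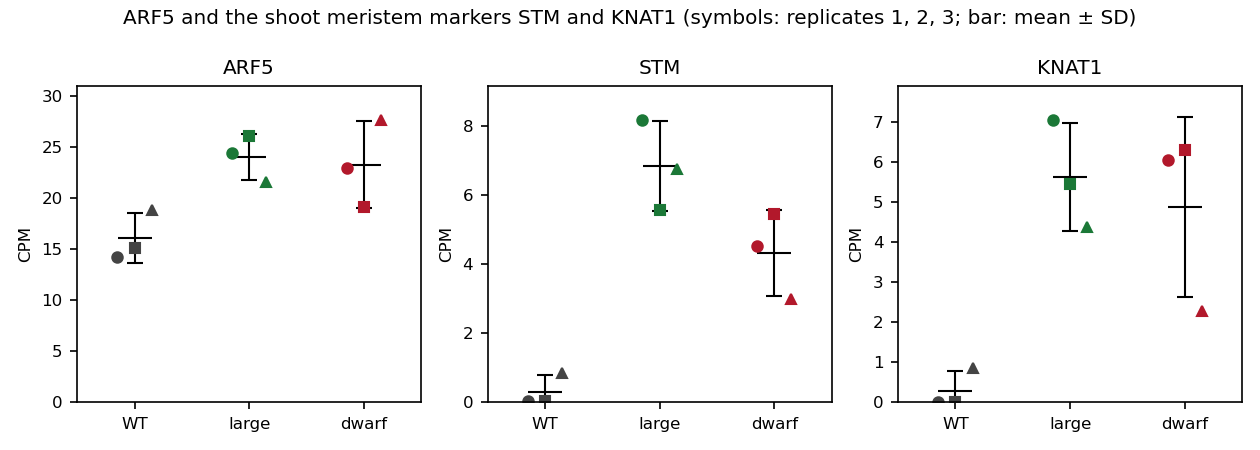
CPM (vertical axis, from 0) of ARF5 and the meristem markers STM and KNAT1 in each library, by group, with mean and SD of 3 replicates. In all 3 genes the 6 RNAi libraries lie above the 3 WT libraries, and WT 3 is the highest of the WT libraries in each.

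**Figure D5:**
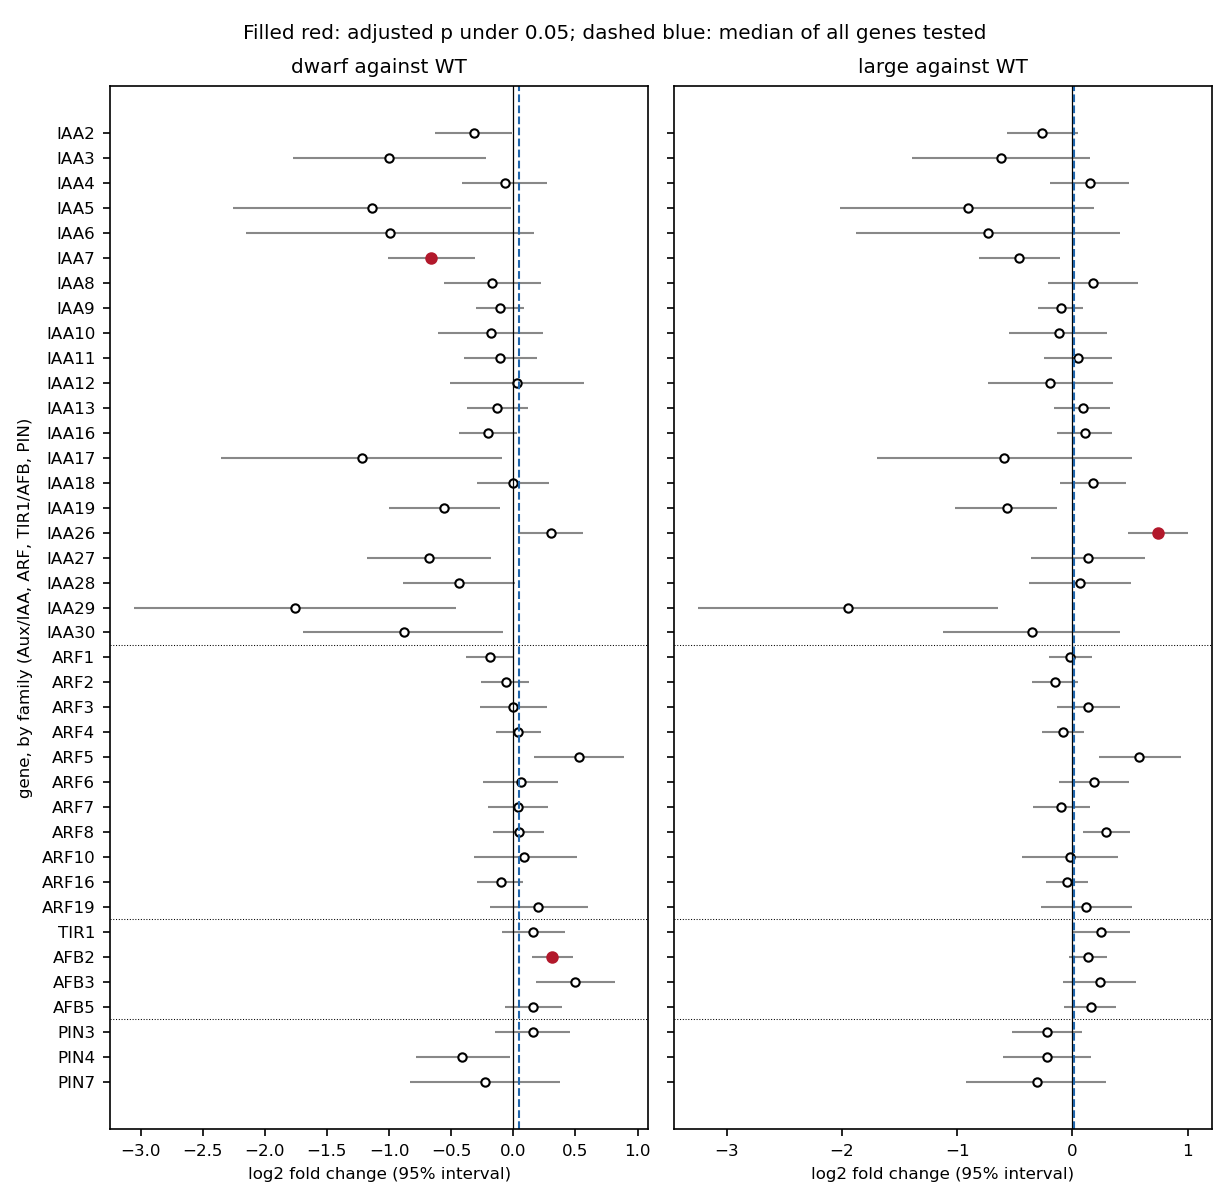
Log2 fold change (horizontal axis) with its 95% interval for each of the 39 tested members in dwarf against WT (left) and large against WT (right), with called genes in filled red and the median of all genes tested as a dashed line. Of the Aux/IAA genes, 18 of 21 lie left of 0 in dwarf and 12 of 21 in large, and the 4 receptors lie right of 0 in both.

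Around these families, 82 other genes of the auxin pathway were listed, of which 59 could be tested. In dwarf against WT 4 of them rose and 2 fell, 10.2% of those tested beside 8.76% of all genes, and in large against WT 1 rose, 1.69% beside 4.22%. None was called between dwarf and large, where 15 of 59 had an unadjusted p under 0.05 in edgeR, against 19.9% of all genes, and DESeq2 called 3, ARF11, ARF17 and AUX1, against 8.59%. Of the pathway genes called by edgeR, the receptor AFB1 had the largest rise, from 28.7, 28.9 and 31.5 CPM in WT to 63.4, 54.9 and 61.6 CPM in dwarf libraries 1 to 3 and 64.0, 49.6 and 60.5 CPM in large libraries 1 to 3 (log2 fold changes 1.01 in dwarf, adjusted p = 0.00551, and 0.97 in large, adjusted p = 0.00937). AFB1 lies in the segment of chromosome 4 that was raised in all 6 RNAi libraries, and with the step out the log2 fold changes were 0.32 and 0.40 (adjusted p = 0.157 and 0.133).

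Further risers in dwarf were CUL1, the scaffold of the SCF ligase (0.78, adjusted p = 0.0209, edgeR), SGT1B, a cochaperone of SCF complexes (0.71, adjusted p = 0.0388), and PIN6, a carrier of internal membranes (0.57, adjusted p = 0.0191). All 3 lie in raised segments, and with the step out their log2 fold changes were 0.06, -0.02 and 0.22. Outside the segments, IAMT1, which methylates auxin, fell by 0.95 on the log2 scale (adjusted p = 0.0450) and ASK2, the adaptor of SCF complexes, fell by 0.29 (adjusted p = 0.0499). Both calls were lost with the step taken out or the segments' genes left out, and in 8 of the 9 fits without 1 library, with adjusted p up to 0.132 for IAMT1 and 0.160 for ASK2, while over the 18 alternatives the log2 fold changes stayed between -1.06 and -0.76 for IAMT1 and between -0.36 and -0.24 for ASK2. IAA1, an Aux/IAA gene of the chromosome 4 segment outside the 22 listed, had log2 fold changes of -0.41 in dwarf (adjusted p = 0.225, edgeR) and 0.19 in large (adjusted p = 0.710) as measured, with overlapping replicates in both. They were, with the step out, -1.08 (adjusted p = 0.0449) and -0.37 (adjusted p = 0.498).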

How the data were processed

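The authors deposited 1 table of raw counts per gene for each of the 9 libraries, with no normalization, as the values and the file headers show. Per the labels' protocols, TruSeq v2 libraries, whose protocol does not mark strand, were read as pairs of 100 bp. The submitters' processing notes name the TAIR10 build with STAR 2.7.0a and Trim Galore 0.4.1, and no source used here states how reads were counted or whether strand was used. Lines that name no gene (reads outside genes, 0.642 to 0.900% of gene counts, and ambiguous reads, 0.228 to 0.309%) were left out.

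Counts were filtered with filterByExpr (19870 genes left), scaled by TMM factors (0.935 to 1.05) and tested with edgeR 4.0.16 in R 4.3.3, with 3 groups of libraries in 1 quasi-likelihood model and no block. Called genes have a Benjamini-Hochberg adjusted p under 0.05. Dividing the size of a log2 fold change by the root of its F statistic gave its standard error. No 2 libraries of the same group were duplicates, and pairs across groups were not compared. Raised segments were searched among genes of at least 5 CPM, as runs of at least 50 genes whose median log2 ratio to WT was at least 0.3 in size, and 4 shorter runs were not used; the minimum of 50 genes was set after those runs had been seen. The tests and the search were tried on simulated data. Sequences and symbols come from the RefSeq TAIR10.1 assembly.

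The alternatives were other scaling factors, other filters, only the groups compared, the replicate block, DESeq2 1.42.0, the step taken out, segments left out and each library left out. The members, lists and rules were chosen with earlier results of these data known. The rule named every called gene, the highest and lowest member of each family and the 3 uncalled members with the smallest p in each comparison. The other genes named with values, such as IAA3, IAA5, IAA17, IAA19, IAA12, ARF6, TIR1, PIN3, PIN7 and IAA1, were chosen after their values were seen. Protein sequences were not used here. One listed gene is not reported here.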

Additional observations from a re-analysis of the deposited data

How the results depend on the processing

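Counts of called genes depended on the processing. In dwarf against WT, 1740 genes and 2 members became 467 and 0 with only the 2 groups in the fit, 3184 and 7 with DESeq2, 858 and 4 with the step of raised segments taken out, and 586 and 1 with those segments left out, and 1 member was called with upper-quartile factors or no filter. In large against WT, 838 genes and 1 member became 2205 and 6, 1833 and 3, 324 and 1, and 265 and 1 under the same 4 settings. In dwarf against large, 129 genes became 0 with only the 2 groups, 1706 with DESeq2 and 67 with segments left out, and DESeq2 called 2 members. Leaving out 1 library gave 266 to 4477 genes and 0 to 13 members in dwarf against WT, 9 to 1599 and 0 to 3 in large against WT, and 0 to 3236 and 0 to 5 in dwarf against large. Higher calls were 1299 of 1740 in dwarf against WT, 1050 of 1812 with upper-quartile factors and 429 of 858 with the step out. With the step out, SGT1B, PIN3, IAA12, ARF6 and ARF19 turned sign in dwarf, to -0.02, -0.19, -0.20, -0.13 and -0.00, and IAA1 in large, to -0.37, all without a call there. IAA12 also turned with upper-quartile factors (-0.04), the replicate block (-0.01), without WT 1 (-0.04) and without dwarf 3, and ARF6 with upper-quartile factors (-0.01). Leaving out 1 library gave -0.36 to 0.20 for IAA12, -0.11 to 0.17 for ARF6 and -0.02 to 0.33 for ARF19, each lowest without dwarf 3. The cause of these shifts was not tested.

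Correlations of same-numbered libraries, in their deviations from group means, ran from -0.240 to 0.426. Libraries of unlike number were not compared, so these values cannot tell whether replicate numbers pair the samples. With the replicate block, 1263, 618 and 0 genes were called in the 3 comparisons, with 1, 1 and 0 members, and the call of AFB2 in dwarf was lost (adjusted p = 0.0618). Depth limits the lowest members, IAA20 and IAA30. The labels call the samples biological replicates without naming plants or pools.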
